A study of Homo sapiens with 8 samples.

Results

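Peak lists from chromatin immunoprecipitation followed by sequencing (ChIP-seq) were examined at 9 genes, TK1, TYMS, RRM1, RRM2, CAD, ODC1, ADA, HPRT1 and UMPS, out of 20033 protein-coding genes. The genes were chosen by name, as genes of nucleotide and polyamine metabolism long described as targets of the transcription factor Sp1, and no threshold on a measured value was applied. A peak was assigned to a gene when its summit lay in the gene or within 5 kb of either end. The cells were U-2 OS, a human osteosarcoma line, crosslinked with 1% formaldehyde for 6 min and given no other treatment. A clone whose genotype is labelled as an endogenous V5-Halo-SP1 knock-in, and whose samples are titled parental, was immunoprecipitated with anti-SP1 antibody 1, anti-SP1 antibody 2 or normal rabbit IgG, 1 library each, beside 1 input. Another clone, C32, with FLAG and Halo tags knocked into CTCF, gave CTCF replicates 1 and 2, each with its input. The text describing the series names wild type cells for CTCF instead, and the sample labels were followed. No peak list of an input was used here.

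Sp1 is a zinc finger activator that contacts GC boxes, short GC-rich elements common in the promoters of housekeeping and growth genes that lack a TATA box. CTCF is a zinc finger protein with a longer recognition sequence, best known for its place at insulators and at the anchors of chromatin loops. Cells make deoxynucleotides either from small precursors or by salvage of bases and nucleosides, and several enzymes of both routes rise when cells enter S phase. ODC1 stands slightly apart from the other genes, since it makes the polyamine putrescine and no nucleotide.

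The Sp1 lists held 8706 peaks for antibody 1 and 5973 for antibody 2, the CTCF lists held 42765 and 36082, and the IgG list held 106. Each peak carries a fold enrichment, which is a linear ratio at the summit, and a −log10 q. The control library behind each list is not stated. Median fold enrichment was 7.72 and 6.75 in the Sp1 lists, 27.5 and 20.0 in the CTCF lists and 1.91 in the IgG list. The lists give no read depth and read numbers of the libraries were not used here, and with 1 library per Sp1 antibody a difference between genes or antibodies has no replicate check. Sp1 and CTCF came from different lines and sequencing platforms, so the target and the experiment cannot be told apart where their values stand side by side.

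Sp1 was recovered at 5 of the 9 genes, TK1, TYMS, RRM1, RRM2 and CAD, and at none of ODC1, ADA, HPRT1 and UMPS. A peak of either antibody was listed at 48.4% of all protein-coding genes. Antibody 1 gave a peak at all 5, against 44.3% of all protein-coding genes under the same rule. Antibody 2 gave a peak at 4 of the 9, all but CAD among the same genes, against 31%. Peaks of both antibodies were thus listed at 4 genes, where the share of protein-coding genes was 26.9%. CTCF peaks of both replicates were listed at 6 genes, TK1, TYMS, RRM2, ODC1, ADA and HPRT1, against 61.1%. The IgG list had no peak at any of the 9 genes and one at 0.0799% of protein-coding genes. Peaks of both Sp1 antibodies and both CTCF replicates were listed at 3 genes, TK1, TYMS and RRM2, against 18.7% of protein-coding genes. RRM1 and CAD had Sp1 without CTCF, ODC1, ADA and HPRT1 had CTCF without Sp1, and UMPS had neither. Shares of protein-coding genes in these last states are not given, so this split describes the named genes only. Median gene length was 26575 bp in the set and 27471 bp over protein-coding genes.

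The tighter rule of a summit within 1 kb of any annotated start site of the gene left the Sp1 counts as they were and cut the CTCF count. Antibody 1 then gave 5 of 9 genes against 37.3% of protein-coding genes, antibody 2 gave 4 against 24.1% and both gave 4 against 21.1%. CTCF in both replicates fell to 2 genes, TK1 and RRM2, against 24.2%, and IgG stayed at 0 against 0.025%. RRM2 counted only through a CTCF peak beyond its main transcript, 207 and 208 bp from another annotated start, and had no CTCF summit within 1 kb of its main start. For antibody 2 the TYMS and RRM2 summits counted through other annotated starts, 599 and 364 bp away. Within 1 kb of the main start, antibody 2 had summits at TK1 and RRM1 only, against 21.7% of promoters. Antibody 1 had summits there at the same 5 genes, against 34% of promoters. With 9 genes these counts are a description only.

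**Figure D1:**
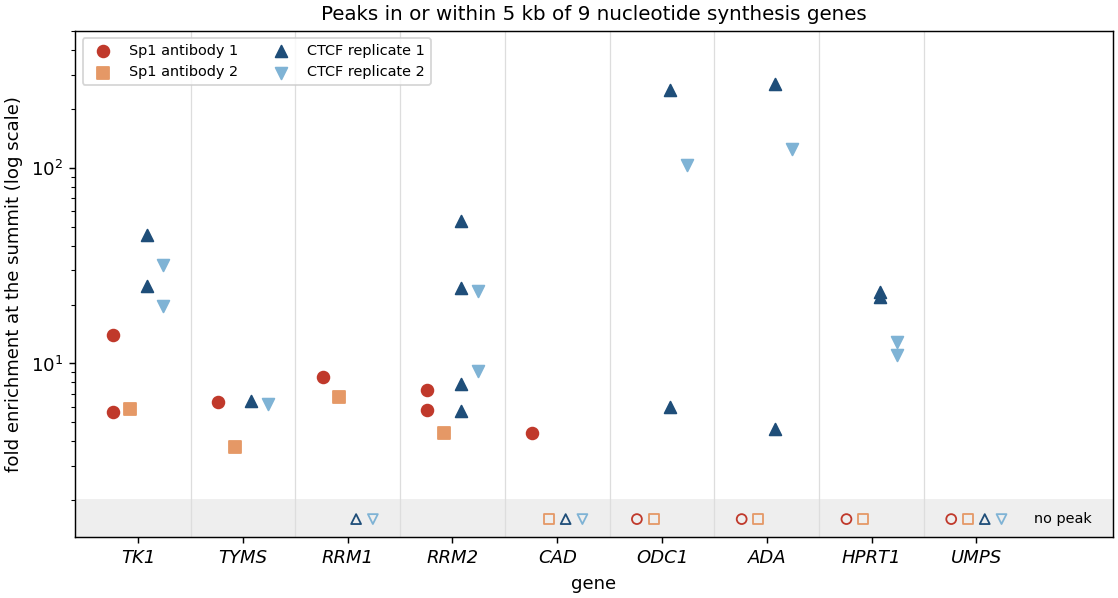
Fold enrichment of each peak (linear ratio, vertical log axis) in or within 5 kb of the 9 genes, by list. Open symbols in the grey band mark where a list had no peak. Sp1 values lie between 3.74 and 13.9, and the CTCF values of ODC1 and ADA reach 251 and 270 in replicate 1.

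TK1, the cytosolic kinase that salvages thymidine, had the highest Sp1 value of the set. The gene lies on the reverse strand of chromosome 17 (hg38, 78174091 to 78187233). At its promoter antibody 1 gave a fold enrichment of 13.9 (−log10 q 39.6), higher than 80.5% of the peaks in its list, with the summit 230 bp upstream of the start site of the main transcript. Antibody 2 gave 5.86 (−log10 q 10.6), higher than 38.8% of its list, with the summit 303 bp upstream. The summits lay 73 bp apart and the intervals shared 726 bp. This promoter is shared: the antibody 1 summit stood 76 bp upstream of the start of AFMID, a gene of tryptophan metabolism on the opposite strand, and the antibody 2 summit 3 bp from it. Each CTCF replicate also had a peak here, with folds of 45.5 and 31.9 and summits 123 and 125 bp upstream of the TK1 start, 107 and 105 bp from the antibody 1 summit. An additional antibody 1 peak near TK1 had a fold of 5.68 and −log10 q of 9.70. It lay 17491 bp downstream of the TK1 start and 123 bp from a start of SYNGR2, a neighbouring gene. A CTCF peak in a TK1 intron had folds of 25.0 and 19.6.

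The 100 bases around the antibody 1 summit at TK1, and stretches at the GC boxes under the Sp1 peaks of CAD, RRM2 and TYMS, are shown because they hold the element that Sp1 contacts. They are given 5′ to 3′ on the strand of the gene, with GC boxes (GGGCGG or its complement CCGCCC) in capitals, from chr17:78187234-78187333 (reverse strand), chr2:27217249-27217368, chr2:10120304-10120404 and chr18:658363-658463 of hg38.
TK1: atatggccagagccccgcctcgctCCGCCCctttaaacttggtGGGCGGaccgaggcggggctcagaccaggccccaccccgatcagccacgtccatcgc
CAD: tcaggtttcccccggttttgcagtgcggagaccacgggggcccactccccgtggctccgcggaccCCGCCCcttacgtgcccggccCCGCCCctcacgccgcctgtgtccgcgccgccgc
RRM2 upstream: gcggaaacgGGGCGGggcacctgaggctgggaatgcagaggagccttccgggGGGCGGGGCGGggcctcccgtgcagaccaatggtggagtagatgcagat
TYMS: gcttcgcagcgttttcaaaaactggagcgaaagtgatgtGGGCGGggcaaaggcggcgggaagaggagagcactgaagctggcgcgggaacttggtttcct

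TYMS, the synthase that turns deoxyuridine monophosphate into thymidylate, had weaker Sp1 peaks, and the antibodies marked different places. Antibody 1 gave a fold of 6.36 (−log10 q 14.4), higher than 36.0% of its list, in an intron 760 bp downstream of the main start. That summit lay 149 bp from another annotated TYMS start, and 63 bp from the start of TYMSOS, a long noncoding RNA on the opposite strand. A further long noncoding RNA, ENSG00000263727, starts 1154 bp from it. The single GC box under it is in the TYMS sequence above. Antibody 2 gave 3.74 (−log10 q 3.74), higher than only 8.32% of its list, in an intron 9469 bp downstream. No GC box lay within 100 bp of that summit. Of the 4 genes with peaks of both antibodies, TYMS alone had peaks that did not overlap, so the count of genes with overlapping peaks of both antibodies was 3. The share of 26.9% of protein-coding genes given above asks for no overlap. A share under the overlap rule is not given, so the count of 3 has no background to be read against. A weak CTCF peak, with folds of 6.41 and 6.23, lay 8688 and 8675 bp downstream of the start.

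RRM1 and RRM2 encode the large and small subunits of ribonucleotide reductase, which makes deoxynucleotides from ribonucleotides. Both had Sp1 at the start of the main transcript, and neither had a GC box within 50 bp of that summit. At RRM1 antibody 1 gave a fold of 8.51 (−log10 q 15.4) with the summit 3 bp before the start, and antibody 2 gave 6.72 (−log10 q 9.77) with the summit 7 bp after it in the 5′ UTR. These folds were higher than 56.6% and 49.6% of their lists. RRM1 had the highest antibody 2 value of the set, where TK1 had the highest antibody 1 value. No CTCF peak lay within 5 kb of RRM1, and the nearest one stood 21.9 kb upstream.

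RRM2 had Sp1 peaks at separate sites. At the main start antibody 1 gave 5.76 (−log10 q 8.75), with the summit 30 bp upstream, and antibody 2 had no peak. Further upstream, antibody 1 gave 7.36 (−log10 q 20.4) with the summit 2385 bp before the main start, and antibody 2 gave 4.43 (−log10 q 6.49) with the summit 2405 bp before it. That site is 344 bp from the furthest annotated RRM2 start for antibody 1 and holds 3 GC boxes, shown above as RRM2 upstream, a pair of them overlapping by a base. The annotated RRM2 gene spans 91028 bp, against 8676 bp for its main transcript.

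The promoters of RRM1 and RRM2 are shown for contrast with the GC box sequences. In place of GC boxes, the 300 bases from 250 before to 50 after the main start held 1 CCAAT box at RRM1 and 3 at RRM2, against 2 at TK1, 1 at CAD and 0 at the other 5 genes. CCAAT boxes, the element bound by the factor NF-Y, were in 36.1% of all promoters of this length (CCAAT or its complement, both strands). The CCAAT word is in capitals in chr11:4094649-4094798, the 150 bases before the RRM1 start, and in chr2:10122616-10122645 at RRM2, both on the forward strand.
RRM1: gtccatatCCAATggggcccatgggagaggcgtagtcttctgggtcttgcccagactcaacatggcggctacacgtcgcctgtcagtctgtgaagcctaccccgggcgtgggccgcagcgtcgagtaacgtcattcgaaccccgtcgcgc
RRM2: CCAATgggaagggtcggaggcatggcacag

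CAD and UMPS carry the opposite ends of pyrimidine synthesis from small precursors, CAD as the enzyme of its opening steps and UMPS as the enzyme that makes uridine monophosphate. CAD had the weakest antibody 1 peak of the set. Its fold was 4.42 (−log10 q 4.41), higher than 13.5% of the list, with the summit 83 bp upstream of the start. Antibody 2 had no peak nearer than 106 kb to the CAD start. The CAD sequence above holds 2 GC boxes, 1 of them within 50 bp of the summit and both within 100 bp. The starts of ATRAID and SLC5A6 lay 912 and 4328 bp from the summit. An antibody 1 peak with a fold of 12.9 fell just outside the 5 kb limit, 5314 bp from CAD, and CTCF peaks with folds of 13.5 and 7.58 lay 6377 and 6387 bp from it. UMPS had no peak of any kind within 5 kb, and the nearest Sp1 summit of either antibody was 769 kb away.

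ADA, which deaminates adenosine and deoxyadenosine, HPRT1, which salvages hypoxanthine and guanine, and ODC1, the enzyme that commits ornithine to polyamines, had no Sp1 peak. The nearest summits to the ADA start were 63.0 kb away for antibody 1 and 77.4 kb for antibody 2. For ODC1 these distances were 146 and 242 kb, and for HPRT1 336 and 639 kb. The absence of a peak says that no region there passed the threshold of the caller, and signal below it was not examined.

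The promoters of these 3 genes held more GC boxes than any promoter of the set with an Sp1 peak. From 250 bases before to 50 after the main start, ODC1 had 6 GC boxes, ADA 5 and HPRT1 4, whereas TK1 and CAD had 2 and TYMS, RRM1, RRM2 and UMPS had 0. A GC box was in 61.3% of all promoters of this length. GC content was 79.0% at ODC1, 79.3% at ADA and 68.7% at HPRT1, and between 61.3% and 72.3% at the other 6 genes. Part of each GC-box promoter is shown, with GC boxes in capitals, from chrX:134460045-134460164 (forward strand), chr2:10448428-10448577 and chr20:44651780-44651809 (both reverse strand). The UMPS promoter, chr3:124730332-124730432 on the forward strand, is shown beside them as one with neither a GC box nor a peak.
HPRT1: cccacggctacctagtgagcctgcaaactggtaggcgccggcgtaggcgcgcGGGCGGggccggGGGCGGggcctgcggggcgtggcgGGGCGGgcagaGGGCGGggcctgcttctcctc
ODC1: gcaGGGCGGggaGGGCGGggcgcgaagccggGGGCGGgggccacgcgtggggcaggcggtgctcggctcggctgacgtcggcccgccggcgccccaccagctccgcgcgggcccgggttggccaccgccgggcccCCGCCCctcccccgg
ADA: ggcGGGCGGGGCGGgggctccggcgagagg
UMPS: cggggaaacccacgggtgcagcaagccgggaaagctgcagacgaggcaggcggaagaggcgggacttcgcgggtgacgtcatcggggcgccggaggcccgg

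**Figure D2:**
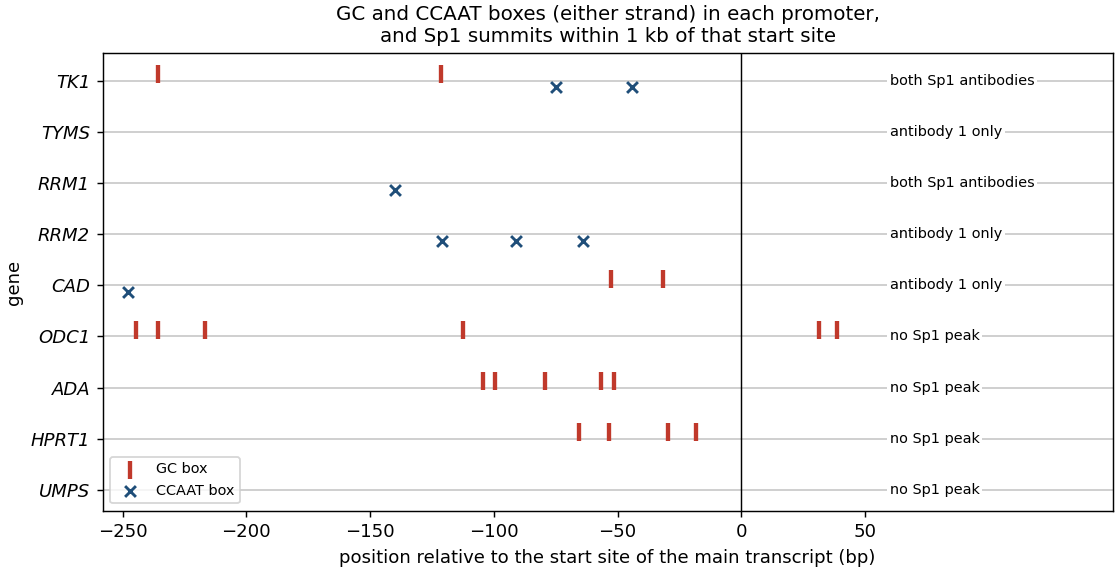
GC boxes (red bars) and CCAAT boxes (blue crosses) on either strand, by position in bp from the start of the main transcript, with the Sp1 antibodies that had a summit within 1 kb of that start named at the right. ODC1, ADA and HPRT1, with 6, 5 and 4 GC boxes, have no Sp1 peak, and RRM1, with 0, has peaks of both antibodies.

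Promoters with boxes but no summit nearby, and promoters without boxes but with a summit nearby, were also found at many other genes. Of the 2971 protein-coding promoters with 4 or more GC boxes, 42.3% had an antibody 1 summit within 1 kb of the main start (95% Wilson interval 40.5 to 44.1%) and 57.7% did not. The share was 44.6% (43.6 to 45.7%) among 9311 promoters with 1 to 3 GC boxes and 18.1% (17.2 to 19.0%) among 7751 with 0. For antibody 2 the shares were 20.7%, 29.0% and 13.4% in the same order, so the class with most GC boxes had fewer antibody 2 summits than the class with 1 to 3. TYMS, RRM1 and RRM2 belonged to the 1402 promoters with 0 boxes and an antibody 1 summit, and UMPS to the 6349 without one. Boxes were counted in a shorter window than the 1 kb on either side allowed for a summit. A promoter with 0 boxes can therefore have a summit with a GC box of its own. The TYMS summit, 760 bp after the main start, had 1 within 50 bp. The antibody 1 summits at the main starts of RRM1 and RRM2 had 0. The intervals cover counting error only. Neither of the E2F-like words TTTCGCGC and TTTGGCGC and no TATA-like word, TATAAA, was found in the 9 promoters on either strand, against 1.55% and 9.71% of all promoters.

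**Figure D3:**
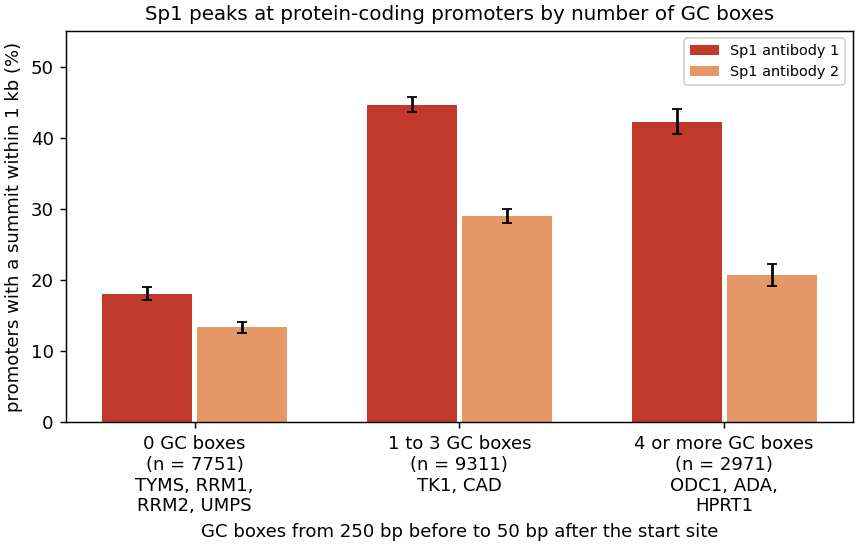
Share of protein-coding promoters with an Sp1 summit within 1 kb of the main start, in percent, by number of GC boxes and by antibody, with 95% Wilson intervals as error bars and the genes of the set named under their class. Antibody 1 gives 18.1%, 44.6% and 42.3% from left to right. Boxes were counted in a shorter window around the main start than summits.

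At the summits themselves, 5 of the 7 antibody 1 peaks of the set held a GC box within 50 bp, against 52.8% of the whole list (51.8 to 53.9%), and 3 held the longer box GGGGCGGGG, which contains a GC box, against 18.8%. Of the 4 antibody 2 peaks, 1 held a GC box, against 36.7% (35.5 to 37.9%). The peaks without one were those at the main starts of RRM1 and RRM2 for antibody 1, and for antibody 2 those at TK1, TYMS and RRM1. At TK1 the antibody 2 summit had 0 GC boxes within 50 bp and 2 within 100 bp, the reach at which the antibody 1 summit had the same number.

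Fold enrichment of Sp1 at these genes was modest for the lists. The 7 antibody 1 peaks ranged from 4.42 to 13.9 with a median of 6.36, and 2 of them, at TK1 and RRM1, exceeded the list median. The 4 antibody 2 peaks ranged from 3.74 to 6.72 with a median of 5.15, and 0 exceeded theirs. By the strongest peak of each gene, TK1 stood above 73.9% of the 8883 protein-coding genes with an antibody 1 peak, RRM1 above 45.9%, RRM2 above 35.9%, TYMS above 25.1% and CAD above 6.88%. For antibody 2, with 6205 such genes, the order was RRM1 at 43.0%, TK1 at 31.6%, RRM2 at 10.2% and TYMS at 3.19%. TK1 and RRM1 therefore changed places between the antibodies, and RRM2 and then TYMS followed in both. CAD had no place in the antibody 2 order, and the TYMS values came from peaks that did not overlap.

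Antibody 1 gave the higher fold at all 3 sites where the antibodies overlapped. The ratio of antibody 1 to antibody 2 was 2.38 at TK1, 1.66 at the upstream site of RRM2 and 1.27 at RRM1. Its median over 4281 shared peaks was 1.56, so RRM2 lay near the usual ratio. On the log2 scale of antibody 2 over antibody 1, TK1 at -1.25 lay below the middle range of those peaks (-1.10 to -0.03, the 25th and 75th percentiles), and RRM1 at -0.34 and RRM2 at -0.73 lay within it.

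**Figure D4:**
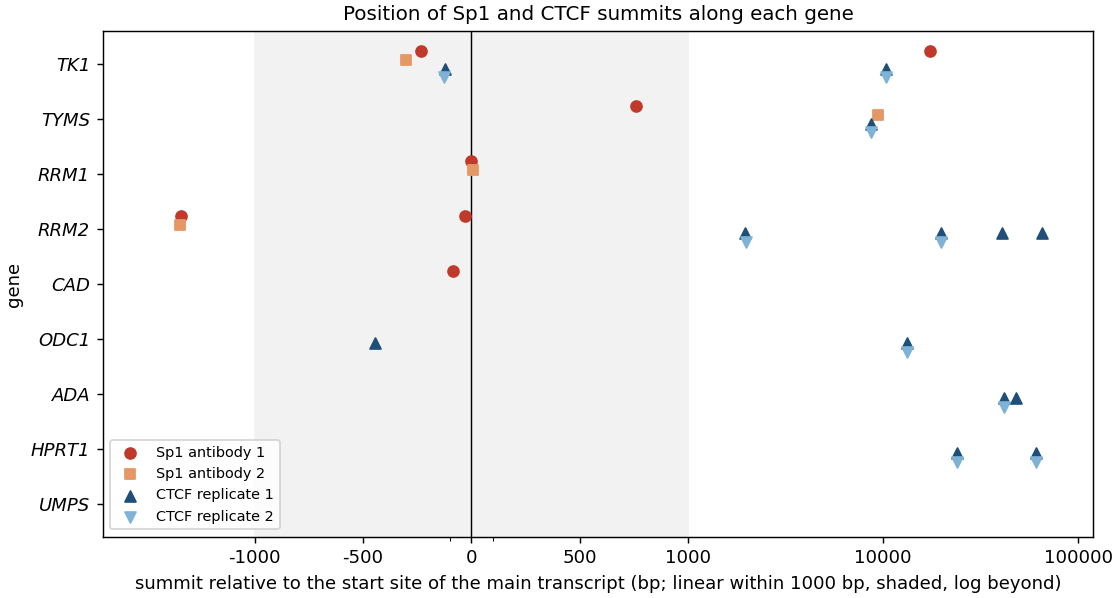
Position of every summit in or within 5 kb of the 9 genes, in bp from the start of the main transcript along the direction of transcription, on a scale that is linear within 1000 bp (shaded) and logarithmic beyond. Within 1000 bp of the main start lie Sp1 summits of TK1, TYMS, RRM1, RRM2 and CAD, with others 2385 and 2405 bp before that of RRM2, 9469 bp into TYMS and 17491 bp past the TK1 start, whereas most CTCF summits lie more than 1000 bp inside or beyond the gene.

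The strongest CTCF peaks of the set were at ADA and ODC1, which had no Sp1 peak. A peak inside the annotated ADA gene, beyond its main transcript and 4123 bp upstream of a start of PKIG, an inhibitor of protein kinase A, had folds of 270 in replicate 1 and 125 in replicate 2 (−log10 q 2781 and 1505). These exceed 99.8% and 99.5% of the lists. A peak 4842 bp past the end of ODC1 had folds of 251 and 103, above 99.6% and 98.1%. Between ADA and ODC1 the folds differed by less than the replicates did. HPRT1 had an intron peak with folds of 23.2 and 11.1 and a peak just past its end with folds of 22.0 and 12.9, and their order differed between replicates.

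RRM2 had a CTCF peak 1958 and 1982 bp after the main start with folds of 53.7 and 23.4, and another 19793 and 19794 bp from the start with folds of 24.5 and 9.13. By the strongest peak, RRM2 exceeded TK1 in replicate 1 (53.7 against 45.5) and fell below it in replicate 2 (23.4 against 31.9), so the order of these genes was within replicate error. Replicate 1 alone had weak peaks at RRM2 with folds of 7.89 and 5.71, the second 4276 bp from the start of MIR4261. It also had one inside ADA with a fold of 4.61, and one upstream of ODC1 with a fold of 5.95, which lay 15 bp from the start of the noncoding gene ODC1-DT and 1921 bp from that of SNORA80B. Replicate 1 gave the higher fold at all 9 sites seen in both, with log2 ratios of replicate 2 over replicate 1 from -1.42 at RRM2 to -0.04 at TYMS. The median over 34125 shared CTCF peaks was -0.89. Summits of the replicates lay 1 to 24 bp apart at these sites.

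Of the 13 CTCF peaks of replicate 1 in the set, 9 had a match to the CTCF core with at most 1 mismatch within 50 bp of the summit, against 50.8% of the whole list. The matches are shown on the strand of the core, with its 12 bases in capitals, for the strongest replicate 1 site of each gene whose strongest site had a match. The TK1 site is the promoter peak beside Sp1. They are from chr20:44610158-44610181 (reverse strand), chr2:10435109-10435132 (reverse strand), chr17:78187167-78187190 (reverse strand), chr2:10124704-10124727 and chrX:134484229-134484252.
ADA CTCF: ccggctACAGCAGATGGCgcaccc
ODC1 CTCF: ctatggACACCAGGGGGCagcagc
TK1 promoter CTCF: ttcctcCCACGAGGGGGCgggctg
RRM2 CTCF: gttttgCCACTAGGTGGAgcgatt
HPRT1 CTCF: gtatctCCAGAAGATGGCactatt
At the TK1 promoter the core shares bases with a GC box, so the letters of both elements run through each other there.

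Sp1 was likewise found at some of the other genes of these pathways and not at others. Among 40 further enzymes and regulators of nucleotide and polyamine metabolism, 23 (57.5%) had an antibody 1 peak, 14 (35.0%) an antibody 2 peak and 13 (32.5%) both, beside the shares of 44.3%, 31% and 26.9% given above for all protein-coding genes. CTCF in both replicates was at 27 of the 40 (67.5%, against 61.1% of protein-coding genes) and IgG at 0. By role, antibody 1 had a peak at 8 of 13 genes of purine synthesis, 3 of 5 of purine salvage, 3 of 6 of pyrimidine synthesis and nucleoside kinases, 5 of 9 of thymidylate and deoxynucleotide supply and 4 of 7 of polyamines. Antibody 2 had a peak at 5, 3, 2, 2 and 2 of them. PPAT and PAICS of purine synthesis shared their strongest peak of each antibody, with folds of 17.0 and 6.54, and it counts for both genes.

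The highest antibody 1 folds of this list were 26.0 at AZIN1, 21.9 at SAMHD1 and 21.7 at DUT, all above the 13.9 of TK1. AZIN1 inhibits the antizyme that removes ornithine decarboxylase, SAMHD1 breaks down deoxynucleotides and DUT removes deoxyuridine triphosphate. AZIN1 also led antibody 2, with a fold of 18.9 and its summit 51 bp upstream of the start, where ODC1, whose protein the same antizyme controls, had no peak. IMPDH2, of guanine nucleotide synthesis, followed with 11.9 at a site 7857 bp from its main start, and PNP, the purine nucleoside phosphorylase, with 11.2. SAMHD1 and DUT had no antibody 2 peak. A peak of either antibody was at 24 of the 40 genes (60%), against 48.4% of protein-coding genes. The 16 genes without a peak of either antibody were PRPS1, PRPS2, IMPDH1, GMPS and ADSS1 of purine synthesis, APRT and DCK of salvage, CTPS2, UCK1 and UCK2 of the pyrimidine class, DTYMK, DCTD, SHMT1 and SHMT2 of thymidylate and deoxynucleotide supply, and SRM and SMS of polyamines. Of the base salvage pair, neither HPRT1 nor APRT thus had an Sp1 peak.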

How the data were processed

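Per the labels, 8 ChIP-seq libraries were made, and the authors deposited peak lists for 5 of them. The authors trimmed reads, aligned them to hg38, removed duplicates and called peaks per library. The submitters' processing notes name cutadapt 2.6, Bowtie2 2.4.5, SAMtools 1.15.1, deepTools 3.5.4, bedtools 2.27.1 and MACS2 2.2.7.1, and the study's methods give other versions of Bowtie2 and SAMtools. For its reproducibility step the study's methods describe a liberal p-value limit, no local background and merged control replicates. Whether the deposited lists were made so is not stated, and a fold depends on it. The deposited fold enrichment is a linear ratio, and the deposited −log10 p and −log10 q belong to the summit. The lowest −log10 q was between 1.30 and 1.43, so the deposited lists end near the same q-value and not at a p-value limit.

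Summits were assigned to GENCODE release 44 genes with Python 3.11.15, and bases read with pysam 0.24.0. The main transcript was the Ensembl canonical one. The percentile of a peak is the share of its list with a fold no higher than its own, the peak and ties included. For peaks, wording such as higher than, above or exceed stands for that share. Words were counted on both strands, overlaps included. The assignment was checked on simulated peaks. The members, the pathway list and the rule for names (all members, the 3 highest folds per Sp1 antibody, genes without Sp1, genes sharing a member peak) were chosen with earlier results of these data known. No p-value was computed. Alternatives changed the q limit, the assignment, the flanks and the word.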

Additional observations from a re-analysis of the deposited data

How the results depend on the processing

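Of 44 recomputed counts, 38 stayed within 1.5 times the reported count and 6 moved. With gene bodies alone and no flank, antibody 1 was at 3 genes, antibody 2 at 2 and both at 2, against 21.4%, 15.6% and 10.8% of protein-coding genes, since every Sp1 summit of TK1 and CAD and the antibody 2 summit of RRM2 lay outside the gene. CTCF in both replicates was at 2 genes within 1 kb of a start, against 24.2%. The longer box was at 3 antibody 1 peaks, where the GC box was at 5, against 18.8% and 52.8% of the whole list. A 100 bp reach gave 2 antibody 2 peaks with a GC box, where 50 bp gave 1, against 52.4% and 36.7%. A −log10 q of at least 3 moved none of the counts over the 9 genes. The shares of protein-coding genes were then 43% for antibody 1, 29.7% for antibody 2, 25.6% for both and 60.8% for CTCF in both replicates. Leaving out either CTCF replicate gave 6 genes each time, against 68.1% of protein-coding genes with replicate 1 alone and 61.6% with replicate 2 alone. A flank of 1 kb gave 5 CTCF genes, without ODC1, against 51.8%, and one of 10 kb gave 7, with CAD, against 69.2%. The span of the main transcript with 5 kb flanks, an alternative chosen after seeing the data, gave 5, without ADA, against 57.9%. No test was run, so no pairing of libraries was used, and the Sp1 and IgG libraries have no replicates. Without read depth, weak binding and absence cannot be told apart where a list has no peak.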
